A study of Mus musculus with 2 samples.

Results

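Glutamate is the main fast transmitter of sensory neurons, and 33 genes of its receptors and transporters were followed through single nuclei of the mouse vagus nerve ganglia. The genes were all rows of the deposited feature list whose symbol is one of these 33, out of 32286 rows. They comprise 4 AMPA receptor subunits, 5 kainate receptor subunits, 1 delta receptor, 7 NMDA receptor subunits, 7 metabotropic receptors, 3 vesicular transporters, 4 glutamate transporters of the plasma membrane and 2 neutral amino acid transporters of the same family. A total of 32 had at least 1 unique molecular identifier (UMI, a captured RNA molecule), and 30 had the 20 UMIs over both libraries that were required for a comparison. *Grm6* had 0 UMIs, which allows a level of up to 0.00172 UMIs per 10000 UMIs for females and 0.00109 for males. *Grin3b* and *Grm2* stayed under the minimum.

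Nuclei came from C57BL/6J mice of the genotype Rosa26-floxed-STOP-Cas9-eGFP on a standard chow diet, in which cells make Cas9 and eGFP once Cre has removed a stop sequence. The mice were 8 to 9 weeks old when obtained. All had AAVrg-Cre, a virus taken up by nerve endings, injected into the liver, and ganglia were taken 4 weeks after that. The protocol names the same animals Rosa26-eGFPf. The female group is 1 pool of 14 ganglia of 7 mice and the male group 1 pool of 16 ganglia of 8 mice, and each pool gave 1 library. Sex, pool and library therefore cannot be told apart. The sexes were compared without a test, and all intervals cover counting error only. Whole ganglia were homogenised, and the methods describe neither a sort for eGFP nor a group without virus.

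Glutamate is loaded into synaptic vesicles by vesicular transporters and opens AMPA, kainate and NMDA receptors, which are ion channels built from several subunits. Metabotropic receptors act through G proteins instead, and those of groups II and III reduce transmitter release. Transporters in the plasma membrane, mostly of glia, take glutamate up again. In the vagus nerve ganglia, nodose neurons carry signals from the viscera to the brainstem with glutamate, and jugular neurons, which arise from the neural crest, resemble those of dorsal root ganglia.

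The RefSeq promoter table (build GRCm38.p6) held windows for 23 of the 33 genes. The 250 bases before the start are shown for *Grm8* and *Grik4*, which were higher in jugular-like neurons, and for *Gria4*, which was higher in nodose-like neurons, as given further on. The *Grm8* sequence covers chr6:28135147-28135396, that of *Grik4* chr9:42944372-42944621 and that of *Gria4* chr9:4796235-4796484, each on the minus strand and written 5′ to 3′. Of 3 starts listed for *Grm8*, the first one in the table was taken. Capitals mark a GC box (GGGCGG or its reverse complement).
Grm8: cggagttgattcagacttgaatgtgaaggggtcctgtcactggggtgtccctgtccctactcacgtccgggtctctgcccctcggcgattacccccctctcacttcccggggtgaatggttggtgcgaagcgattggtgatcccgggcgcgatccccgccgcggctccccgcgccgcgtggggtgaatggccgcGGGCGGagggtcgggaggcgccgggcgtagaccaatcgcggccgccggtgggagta
Grik4: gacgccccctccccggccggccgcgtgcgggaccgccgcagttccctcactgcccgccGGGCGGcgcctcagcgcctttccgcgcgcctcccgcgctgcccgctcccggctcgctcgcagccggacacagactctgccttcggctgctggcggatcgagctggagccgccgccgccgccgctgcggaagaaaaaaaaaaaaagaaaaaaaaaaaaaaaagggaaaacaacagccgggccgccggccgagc
Gria4: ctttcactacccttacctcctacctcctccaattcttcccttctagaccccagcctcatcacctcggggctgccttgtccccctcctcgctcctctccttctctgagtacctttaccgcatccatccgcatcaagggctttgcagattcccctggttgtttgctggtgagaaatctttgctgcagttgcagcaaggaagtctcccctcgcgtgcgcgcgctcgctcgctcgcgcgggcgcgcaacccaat

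The GC box was found in the *Grm8* and *Grik4* sequences and not in that of *Gria4*. It occurred in 32.7% of all 32851 windows and in 15 of the 28 windows of the 23 genes. The RUNX core TGTGGT was searched on both strands too and was in none of these 3 sequences, against 14.0% of all windows. The homeodomain core TAATTA (4.84% of all windows) and the TATA box TATAAA (12.4%) were also in none of the 3. *Slc17a8*, also called higher in jugular-like neurons, had a match to TAATTA and none to the GC box. The GC box was thus not shared by all jugular-higher genes that had a window. *Grik1* and *Grid1*, also higher in jugular-like neurons, and *Gria3*, higher in nodose-like neurons, had no window. GENCODE places the start of *Grm8* at 28135178 and that of *Grik4* at 42944493, inside the sequences shown. Motif matches describe the letters in these windows and are no evidence of binding.

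The female library held 17435300 UMIs over 3791 nuclei (median 2381) and the male library 27529730 UMIs over 4923 nuclei (median 2658). The 33 genes took 0.475% of the female and 0.426% of the male UMIs. Nuclei were assigned to a sex by the library number of their barcode, and *Xist* had 13424 female against 7 male UMIs, whereas the Y-linked *Uty* had 1 female against 4677 male UMIs. Only 8 of 8714 barcode sequences occurred in both libraries. Nuclei were clustered without the 33 genes, and 9 classes were named from marker genes. Neuron-like nuclei came to 674 female and 1607 male. A class with markers of cerebellar granule cells, a cell type foreign to this ganglion, held 380 female and 24 male nuclei. Cluster 16 (213 and 102 nuclei), led by *Il1rapl2*, *Adarb2*, *Pou1f1* and *Pomc*, stayed unnamed. Its leading marker list was that of pituitary cells, also foreign to this ganglion, and the granule cell and inhibitory neuron lists were raised too. The granule cell-like class and cluster 16 are kept apart from the neurons here, but count among the other classes unless stated.

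Of the 30 genes compared, 8 were at least 2-fold higher in neuron-like nuclei than in the mean of the other classes in both libraries, namely *Gria3*, *Gria4*, *Grik1*, *Grik4*, *Grin3a*, *Grm3*, *Grm7* and *Grm8*. Across all 19305 genes compared, 3.87% were higher by the same rule. A further 7 were at least 2-fold lower (background 8.34%), namely *Grik2*, *Grik3*, *Grin2a*, *Grin2b*, *Grm4*, *Slc1a3* and *Slc1a5*. The median log2 ratio of the 30 genes was 0.38, against -0.14 over all genes. Levels are UMIs of a gene per 10000 UMIs of the class, and 0.05 was added to each level before a log2 ratio was taken.

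**Figure D1:**
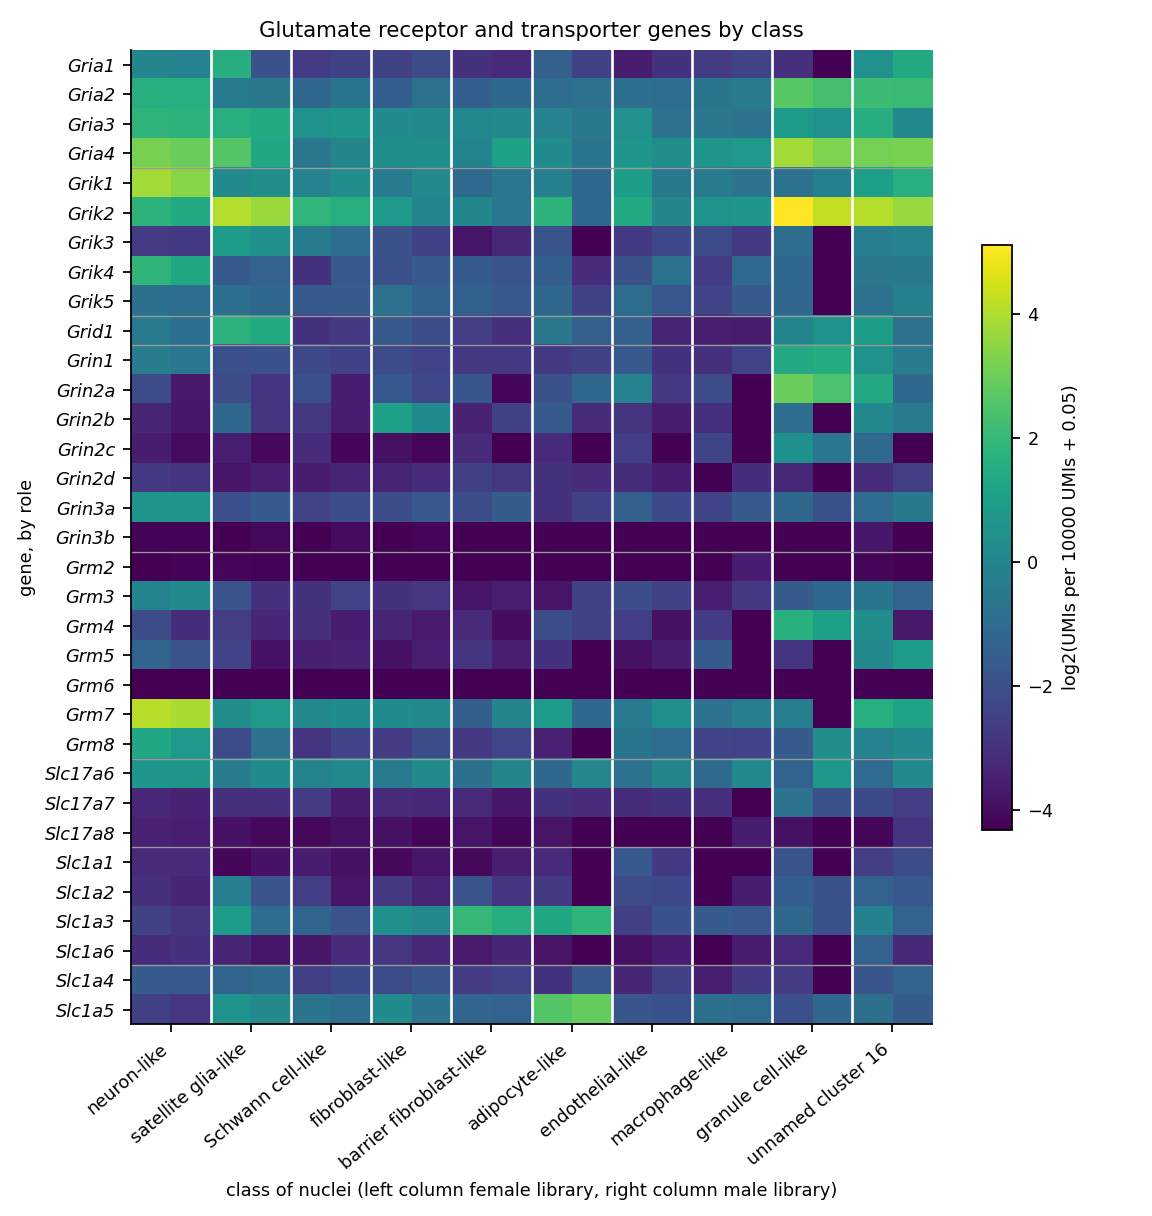
Levels of the 33 genes (rows, grouped by role) in 10 classes of nuclei, each with the female library on the left and the male library on the right, as log2 of UMIs per 10000 UMIs plus 0.05. *Grm7* and *Grik1* are brightest in neuron-like nuclei, *Grik2* in granule cell-like nuclei, cluster 16 and satellite glia-like nuclei, and *Slc1a5* in adipocyte-like nuclei.

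Metabotropic receptors were the group with the largest share of genes higher in neurons, 3 of the 5 compared. *Grm7*, a group III receptor of nerve terminals, had 17.04 UMIs per 10000 in female (95% Poisson interval 16.8 to 17.3) and 15.2 in male neuron-like nuclei (15.01 to 15.4). The log2 ratio over the other classes was 3.81 for females and 3.79 for males, so that both libraries gave nearly the same value. A *Grm7* UMI was seen in 73.6% of female and 79.9% of male neuron-like nuclei, and in 50.8% and 51.5% after each nucleus was thinned to 1000 UMIs. In macrophage-like nuclei, which should lack the gene, the thinned share was 5.88% in both libraries. The median depth was 5902 and 7570 UMIs in neuron-like and 1725 and 1874 in macrophage-like nuclei.

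*Grm8*, a second group III receptor, had 2.48 UMIs per 10000 in female and 1.61 in male neuron-like nuclei, with log2 ratios of 3.01 and 1.77. *Grm3*, a group II receptor, had 0.906 and 1.11, with log2 ratios of 2.13 and 2.46. *Grm4*, another group III receptor, went the other way, with 0.170 and 0.0675 in neurons and log2 ratios of -1.46 and -1.38. Granule cell-like nuclei had 3.126 and 2.001 of *Grm4*, and cluster 16 had 1.18 and 0.0284. The mean log2 ratio was 0.026 with granule cell-like nuclei left out of the other classes, -1.39 with cluster 16 left out and 0.48 with both left out. *Grm5*, a group I receptor coupled to calcium release, had 0.364 and 0.218 in neurons and was not called.

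Kainate receptor subunits split between neurons and other cells. *Grik1*, a subunit that forms channels by itself and is known from nociceptors, had 13.9 UMIs per 10000 in female (13.7 to 14.2) and 10.8 in male neuron-like nuclei (10.6 to 10.9). The next highest class was cluster 16 in both libraries, with 1.94 and 2.95, so that the log2 ratio over the other classes was 3.75 and 3.31. *Grik4*, an auxiliary-type subunit that needs a partner, had 3.53 and 2.41, with log2 ratios of 3.46 and 2.78. *Grik5*, the other subunit of this type, had 0.506 and 0.483 and was near the level of the other classes. *Grik2* had 3.40 and 2.70 in neurons, and its log2 ratios were -1.40 and -1.08. *Grik3* had 0.108 and 0.101, with log2 ratios of -1.77 and -1.37. Without granule cell-like nuclei and cluster 16 among the other classes, the mean log2 ratio of *Grik2* was -0.22.

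Among AMPA receptor subunits, which carry most fast transmission, *Gria4* had 8.97 UMIs per 10000 in female and 7.67 in male neuron-like nuclei, with log2 ratios of 1.18 and 1.24. Granule cell-like nuclei had still more *Gria4* (14.03 and 9.61), as had cluster 16 in the male library (9.22). *Gria3* had 3.51 and 3.34, with log2 ratios of 1.15 and 1.48. Satellite glia-like nuclei came next for *Gria3*, with 3.05 and 2.65, close below the neuron levels. *Gria2*, the subunit that makes the channel impermeable to calcium, had 2.93 and 2.96 and stayed just under the limit of 2-fold in the female library. *Gria1* had 0.922 and 0.870 and was not called.

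Of the 6 NMDA receptor subunits compared, 1 was called higher and 2 lower in neurons. *Grin1*, the subunit that every NMDA receptor needs, had 0.744 UMIs per 10000 in female and 0.596 in male neuron-like nuclei and was not called. *Grin3a*, a glycine-binding subunit that dampens the channel, was the only subunit called higher in neurons, with 1.45 and 1.42 and log2 ratios of 2.40 and 2.20. *Grin2a* had 0.171 and 0.0278, with log2 ratios of -2.68 and -3.28. *Grin2b* had 0.0497 and 0.0256, with log2 ratios of -2.48 and -1.97. These ratios say where the highest levels lay: granule cell-like nuclei for *Grin2a* and fibroblast-like nuclei for *Grin2b*. *Grin2c* (0.0348 and 0.00979) and *Grin2d* (0.0969 and 0.0833) were not called.

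Of the vesicular transporters, *Slc17a6*, which marks most glutamatergic sensory neurons, had 1.48 UMIs per 10000 in female (1.40 to 1.57) and 1.53 in male neuron-like nuclei (1.48 to 1.59). It was not called higher in neurons, and UMIs of it were found in every class: macrophage-like nuclei had 0.435 and 1.11. After thinning to 1000 UMIs, it was seen in 15.9% and 14.5% of neuron-like and 5.15% and 6.62% of macrophage-like nuclei. *Slc17a7* (0.0534 and 0.0446) and *Slc17a8* (0.0422 and 0.0359) were lower than that in neurons. The plasma membrane transporters *Slc1a1*, *Slc1a2*, *Slc1a3* and *Slc1a6* ranged from 0.0490 to 0.127 in neurons. *Slc1a3*, known as a glial glutamate transporter, was 0.127 and 0.0843, with log2 ratios of -2.90 and -2.98, and *Slc1a5*, a glutamine transporter, was 0.123 and 0.0898, with log2 ratios of -2.86 and -3.19. *Slc1a4*, its relative for serine and alanine, had 0.280 and 0.266.

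**Figure D2:**
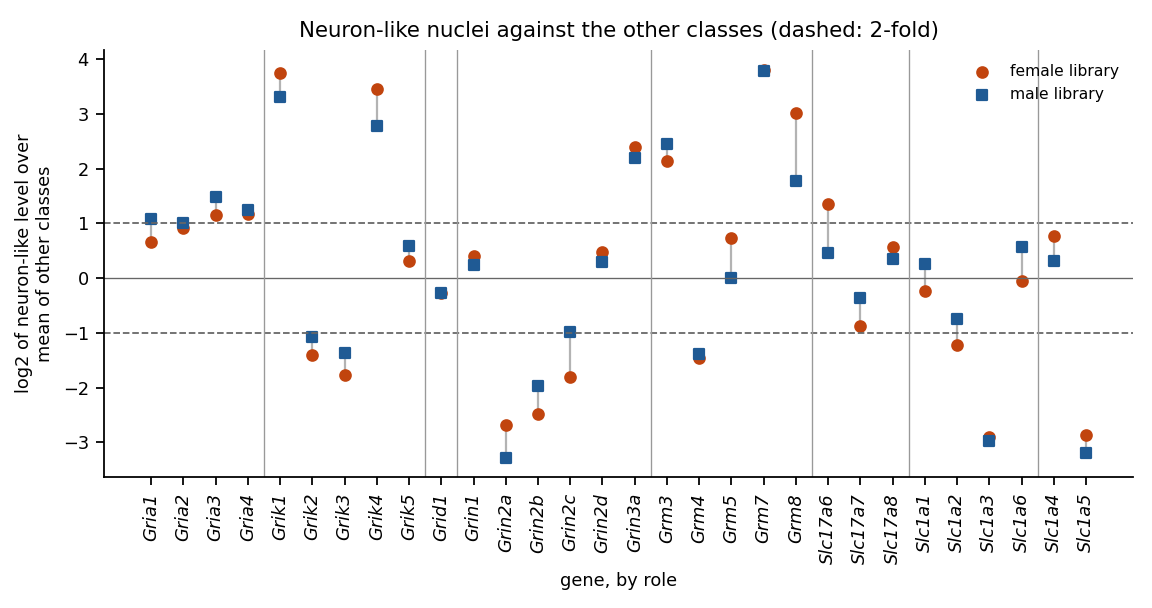
Log2 of the level in neuron-like nuclei over the mean level of the other classes for the 30 genes compared (x axis, by role), as circles for the female and squares for the male library, with dashed lines at 2-fold. The 2 libraries lie close together for *Grm7* (3.81 and 3.79) and furthest apart among the higher genes for *Grm8* (3.01 and 1.77).

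The number of UMIs of a gene in nuclei can grow with the length of its introns, which was not tested here. Levels were therefore also divided by the length of the whole gene, and neither order ranks the genes with certainty. Per 100 kb of gene, the order of the neuron levels changed: *Grik1* had 3.53 and 2.73 UMIs per 10000 in the female and male library, *Slc17a6* 3.02 and 3.12, *Grin1* 2.66 and 2.13, *Gria2* 2.42 and 2.44, *Gria4* 2.37 and 2.03 and *Grm7* 1.85 and 1.65. *Grm7* spans 922 kb and *Grik1* 394 kb, whereas *Slc17a6* spans 49.1 kb and *Grin1* 28.01 kb. By GENCODE on GRCm38, *Grm7* lies on chromosome 6 from 110645581 to 111567230 on the plus strand and *Grik1* on chromosome 16 from 87895900 to 88290265 on the minus strand. No annotated gene overlaps *Grik1*. An overlapping gene on their own strand was annotated for 17 of the 33 genes and on the other strand for 14 (*Grin1os* for *Grin1*), and the counts of these are less certain.

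Satellite glia, which wrap the neuronal cell bodies, had 4 genes at least 2-fold higher than the mean of the other classes in both libraries (background 1.86%). *Grik2* had 16.2 UMIs per 10000 in female (15.6 to 16.9) and 13.04 in male satellite glia-like nuclei (12.6 to 13.5), with log2 ratios of 1.09 and 1.49. A *Grik2* UMI was seen in 69.7% and 66.9% of these nuclei thinned to 1000 UMIs, against 7.35% of macrophage-like nuclei in both libraries. Granule cell-like nuclei had still more *Grik2*. *Grid1*, a delta receptor that binds cerebellins instead of glutamate, had 3.28 and 2.70, with log2 ratios of 2.46 and 2.76. *Grik3* had 1.71 and 1.28, with log2 ratios of 2.28 and 2.36. *Slc1a4* had 0.369 and 0.432, close to the limit of 2-fold in both libraries. Lower by the same rule were 5 genes (background 4.59%).

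The 3 satellite glia-like clusters differed from each other. *Grid1* had 5.59 UMIs per 10000 in female and 5.51 in male nuclei of cluster 8, 1.60 and 1.67 in cluster 3, and 0.559 and 0.821 in cluster 15. High *Grid1* thus was a trait of cluster 8 in both libraries, and without cluster 8 the mean log2 ratio of *Grid1* in the class was 1.37 and the call was lost, as were those of *Grik2* (1.16) and *Slc1a4* (0.64). *Grik2* was high in all 3 clusters, with 17.6 and 15.8 in cluster 8, 11.4 and 11.7 in cluster 3, and 16.9 and 14.1 in cluster 15. Most female nuclei were in clusters 8 (239 nuclei) and 15 (261), and most male nuclei in cluster 3 (548).

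Fibroblast-like nuclei had 1 gene called higher, *Grin2b* (background 1.74%), an NMDA receptor subunit known from the young forebrain. It had 2.08 UMIs per 10000 in female (1.84 to 2.36) and 1.16 in male fibroblast-like nuclei (1.002 to 1.34), with log2 ratios of 2.69 and 2.84. *Grin2b* UMIs were seen in 15.3% and 12.3% of these nuclei, and in 2 of 137 female macrophage-like nuclei (1.46%). In the clusters that hold most of this class, *Grin2b* had 2.07 in the 520 female nuclei of cluster 4, and 1.51 and 0.597 in the 414 and 282 male nuclei of clusters 9 and 17.

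Barrier fibroblast-like nuclei, named from marker genes alone and of untested place in the tissue, had 1 gene called higher, *Slc1a3* (background 2.94%). It had 3.88 and 2.86 UMIs per 10000, with log2 ratios of 2.12 and 1.95. The call rests on cluster 7, in which *Slc1a3* had 6.53 in female and 4.76 in male nuclei. The other cluster of this name, cluster 14, had 0.254 and 0.237, and without cluster 7 the mean log2 ratio was -1.48. In adipocyte-like nuclei 2 genes were called higher (background 3.61%). *Slc1a5* had 5.97 in female (5.31 to 6.69) and 7.30 in male nuclei (6.01 to 8.78), with log2 ratios of 3.31 and 3.95, and was seen in 60.5% and 70.5% of them. *Slc1a3* had 2.49 and 3.52 there, with log2 ratios of 1.27 and 2.39. A further 10 genes were lower in adipocyte-like nuclei (background 5.58%). The highest levels of these 2 uptake transporters were therefore found outside neurons and satellite glia.

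Granule cell-like nuclei had 8 genes called higher (background 2.46%), namely *Gria2*, *Gria4*, *Grik2*, *Grin1*, *Grin2a*, *Grin2c*, *Grm4* and *Slc17a7*. *Grik2* had 34.6 UMIs per 10000 in female and 18.8 in male nuclei, *Grin2a* 7.69 and 5.20, *Grm4* 3.126 and 2.001, and *Grin1* 2.56 and 2.80. The male values rest on 24 nuclei, with 3 UMIs of *Grin2c* and 1 of *Slc17a7*. Another 6 genes were lower in this class (background 6.66%). Cluster 16 had 6 genes called higher (background 1.45%), namely *Gria1*, *Gria2*, *Gria4*, *Grik2*, *Grin2b* and *Grm5*. *Grm5* had 1.02 and 1.79 there, its highest level of all classes. The 1 lower gene of cluster 16 was *Slc1a5* (background 1.74%).

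Schwann cell-like, endothelial-like and macrophage-like nuclei had none of the 30 genes called higher (backgrounds 2.59%, 3.1% and 4.71%). Lower were 13 genes in Schwann cell-like (background 7.09%), 12 in endothelial-like (4.66%) and 17 in macrophage-like nuclei (6.55%). In fibroblast-like nuclei 14 genes were lower (4.25%), and in barrier fibroblast-like nuclei 16 (5.05%). *Gria1*, *Gria2*, *Grid1*, *Grin1*, *Grm4* and *Grm7* were among the lower genes in each of these 5 classes. The mean of the other classes includes granule cell-like nuclei, which had the highest *Gria2*, *Grin1* and *Grm4* in both libraries (3.126 and 2.001 for *Grm4*). *Grm4* was lower in neuron-like and satellite glia-like nuclei too. Except for neurons, lower calls were not repeated without granule cell-like nuclei and cluster 16.

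Neuron-like nuclei were sub-clustered, again without the 33 genes, and 4 of 7 sub-clusters took the name of a ganglion. Nodose-like nuclei (sub-clusters 4 and 5) were 159 female and 377 male, and jugular-like nuclei (sub-clusters 2 and 6) 203 and 426. Sub-cluster 7 was sympathetic-like, with 5 female and 116 male nuclei. Sub-clusters 1, of shallow nuclei, and 3, led by satellite glia genes, have no kind and are left out of this comparison. Depth was alike, with medians of 13027 and 12693 UMIs in nodose-like and 12278 and 12328 in jugular-like nuclei.

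Jugular-like nuclei had 5 genes at least 2-fold higher than nodose-like nuclei in both libraries, *Grik1*, *Grik4*, *Grid1*, *Grm8* and *Slc17a8* (background 2.93%), and nodose-like nuclei had 2, *Gria3* and *Gria4* (background 2.31%). The median log2 ratio of nodose-like over jugular-like was -0.01 for the 30 genes and 0.01 for all genes. *Grik1* differed most. It had 28.2 UMIs per 10000 in female and 27.4 in male jugular-like nuclei, against 0.925 and 0.704 in nodose-like nuclei. That is 30.5-fold in female (27.0 to 34.6) and 39.0-fold in male nuclei (35.2 to 43.3). Thinned to 5000 UMIs, *Grik1* was seen in 56.3% and 67.6% of jugular-like nuclei. The nodose-like share was 13.5% and 21.7%, below the 35.6% and 31.9% in the 59 and 72 satellite glia-like nuclei of that depth. Those deep nuclei are a small part of the 560 and 818 of their class. *Slc17a6* was seen in 33.9% and 48.6% of them, against 56.7% and 50.7% of nodose-like nuclei. Whether they hold neuronal RNA was not tested, so they are no plain glial reference. What part of the nodose-like *Grik1* UMIs is free RNA was not tested, and the folds are ratios of the levels as measured.

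*Grm8* had 4.67 and 3.36 in jugular-like and 0.299 and 0.519 in nodose-like nuclei, a ratio of 15.6-fold in female (12.6 to 19.6) and 6.47-fold in male nuclei (5.71 to 7.36). *Grik4* had 5.47 and 4.13 against 2.08 and 1.71, a ratio of 2.63-fold and 2.41-fold. *Grid1* had 0.930 and 0.805 against 0.299 and 0.157. *Slc17a8*, the vesicular transporter of some touch-sensitive C fibres, was scarce throughout, with 31 and 55 UMIs in jugular-like and 1 and 2 in nodose-like nuclei. In the opposite direction, *Gria4* had 14.7 and 12.5 in nodose-like against 5.19 and 4.47 in jugular-like nuclei, and *Gria3* had 5.32 and 5.29 against 2.13 and 1.84. *Grm7* was higher in jugular-like nuclei, with 24.4 and 21.0 against 9.54 and 11.6, but stayed under 2-fold in the male library (1.81-fold, 1.76 to 1.87). *Slc17a6* had 1.84 and 1.70 in nodose-like and 1.17 and 1.44 in jugular-like nuclei and was not called.

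**Figure D3:**
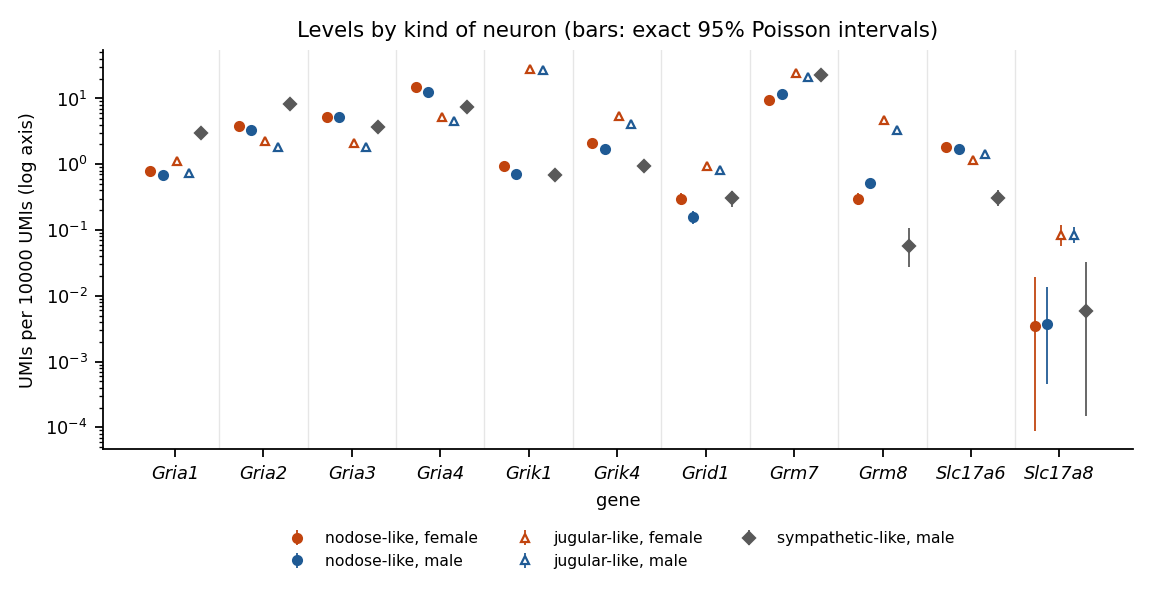
Levels of 11 genes (UMIs per 10000 UMIs, log axis, with exact 95% Poisson intervals) in nodose-like nuclei (filled circles), jugular-like nuclei (open triangles) and sympathetic-like nuclei of the male library (diamonds). *Grik1* and *Grm8* lie higher in jugular-like nuclei, *Gria3* and *Gria4* higher in nodose-like nuclei, and *Slc17a6* is lowest in sympathetic-like nuclei (0.308).

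The 2 jugular-like sub-clusters were unlike in these genes. *Grik1* had 85.0 UMIs per 10000 in female and 77.3 in male nuclei of sub-cluster 6 (57 and 118 nuclei), against 5.62 and 7.25 in sub-cluster 2 (146 and 308 nuclei). *Grm8* showed the opposite pattern, with 0.701 and 0.414 in sub-cluster 6 and 6.26 and 4.55 in sub-cluster 2. *Gria3* was low in sub-cluster 6, with 0.259 and 0.355 against 2.88 and 2.44, and *Gria4* was 2.43 and 2.37 against 6.29 and 5.32. *Grid1* had 0.125 and 0.0645 in sub-cluster 6 and 1.25 and 1.10 in sub-cluster 2. The calls of *Grm8*, *Grid1* and *Slc17a8* therefore rest on sub-cluster 2: without it the mean log2 ratio of nodose-like over jugular-like was -0.41 for *Grm8*, -0.51 for *Slc17a8* and 0.93 for *Grid1*. That of *Grik1* was -2.91 without sub-cluster 6 and -6.56 without sub-cluster 2, and *Grik1* was called both times.

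**Figure D4:**
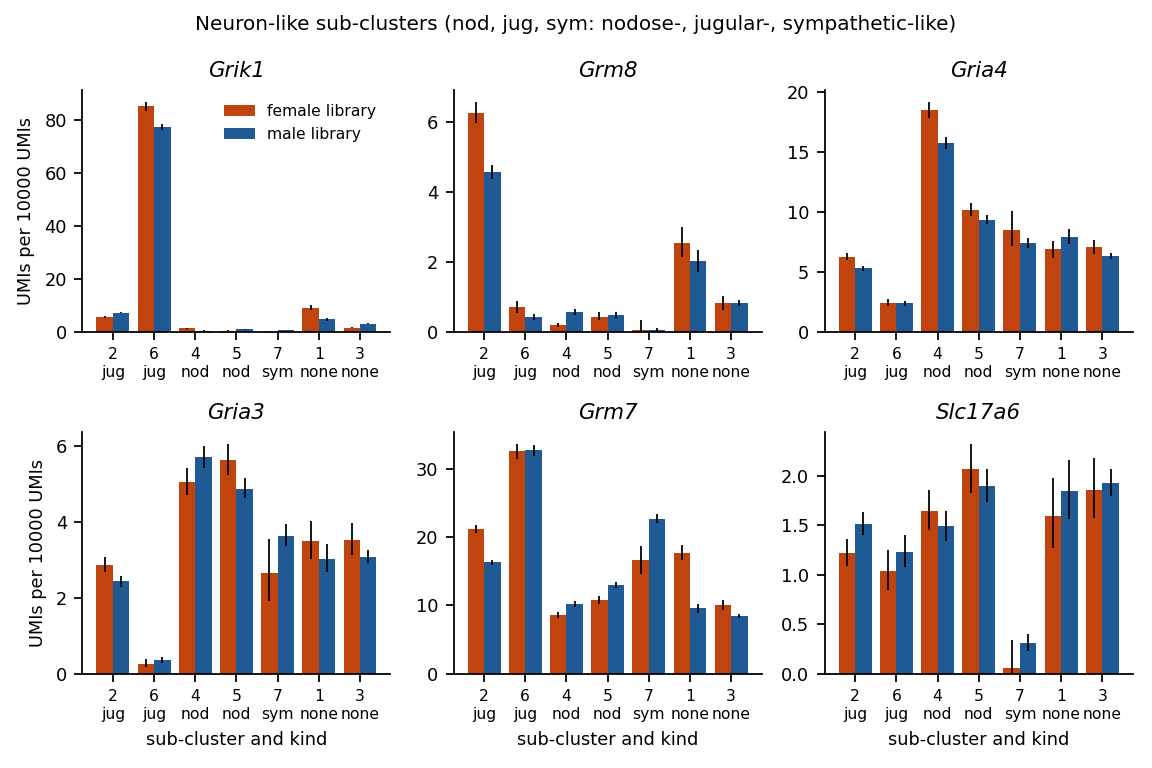
Levels of 6 genes in the 7 sub-clusters of neuron-like nuclei (UMIs per 10000 UMIs, orange bars for the female and blue bars for the male library, with exact 95% Poisson intervals). *Grik1* stands out in sub-cluster 6 (85.0 and 77.3), *Grm8* in sub-cluster 2 (6.26 and 4.55) and *Gria4* in sub-cluster 4 (18.5 and 15.8).

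The nodose-like sub-clusters differed too. *Gria1* had 0.0128 in female and 0.0602 in male nuclei of sub-cluster 4 (2 and 16 UMIs), against 1.73 and 1.31 in sub-cluster 5 (226 and 353 UMIs). *Grm5* was likewise lower in sub-cluster 4, with 0.0893 and 0.0828 against 0.505 and 0.689. *Gria2* was higher there, with 5.41 and 4.90 against 1.97 and 1.80. *Gria4* had 18.5 and 15.8 in sub-cluster 4 and 10.2 and 9.37 in sub-cluster 5, and without sub-cluster 4 the mean log2 ratio over jugular-like nuclei was 1.01 and the call was lost. That of *Gria3* was lost without sub-cluster 6 (0.99). The 116 sympathetic-like nuclei of the male library had little *Slc17a6* (0.308, interval 0.231 to 0.403) and *Grm8* (0.0581). Their *Gria1* (2.9995) and *Gria2* (8.18) were the highest among the kinds of neurons, and *Grm7* was 22.7. Only 5 such nuclei were in the female library, so that this has no second library beside it.

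Genes that work with these receptors were counted in neuron-like nuclei by the same rule, under which 3.87% of all genes were higher and 8.34% lower, with a median log2 ratio of -0.14. Of 14 auxiliary subunits of AMPA and kainate receptors, 1 was higher and 0 lower, with a median log2 ratio of 0.36. The higher gene was *Neto1*, a partner of kainate receptors, with 0.165 and 0.190 UMIs per 10000 and log2 ratios of 1.22 and 1.19. Of 14 scaffold genes, 2 were higher and 1 lower, with a median of 0.04. *Grip1*, which binds AMPA receptors, had 9.08 and 6.57 with log2 ratios of 3.55 and 2.65, and *Dlg2* had 12.1 and 12.7 with 1.37 and 1.48. *Dlg1* was lower, with log2 ratios of -2.05 and -1.94. Of 12 genes of glutamate and glutamine metabolism, 0 were higher and 5 lower, with a median of -0.42. The lowest ratios were those of *Slc7a11*, the cystine and glutamate exchanger (-3.20 and -3.28), and *Slc38a2*, a glutamine transporter (-1.54 and -1.49).

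Between the libraries, all nuclei together had 8 of the 30 genes at least 2-fold higher in females (background 4.85%) and 0 higher in males (2.18%). *Grin2a* had 0.8999 UMIs per 10000 in female and 0.0570 in male nuclei, a log2 ratio of male over female of -3.98 (interval -4.23 to -3.74). *Grin2c* had -4.09, *Grm4* -2.80 and *Grik2* -1.06. These 4 genes are also among those highest in granule cell-like nuclei, which were 380 of 3791 female and 24 of 4923 male nuclei. Without these nuclei and cluster 16, *Grik2* had -0.36, *Grin2a* -2.31, *Grin2c* -2.44 and *Grm4* -1.24. The other 4 of the 8 genes were *Grin2b* (-1.59), *Slc1a2* (-1.45), *Slc17a7* (-1.13) and *Slc1a3* (-1.09). Without the same nuclei they had -1.32, -1.32, -0.47 and -1.14, and *Slc1a5* went from -0.95 to -1.03. *Grik2* was also on a list of sex differences that the study drew from these same nuclei, so its ratio is no independent evidence.

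Within classes, 209 pairs of a gene and a class had enough UMIs. Of these, 41 were at least 2-fold higher in females and 12 in males, against 5.14% and 6.67% of all such pairs. Endothelial-like nuclei had 7 of 18 genes higher in the female library (background 4.95%) and 1 in the male library (7.47%). *Grik2* had a log2 ratio of -1.51 there (156 and 57 UMIs) and *Grin2a* -3.02 (50 and 6 UMIs), whereas *Grik4* had 1.36 (12 and 33 UMIs). Both *Grik2* and *Grin2a* were highest in granule cell-like nuclei. Of 12 granule cell markers, 11 were higher in female than in male endothelial-like nuclei, with a summed level of 21.8 against 11.1. This count does not set the class apart: it was 11 in every other class too, except 10 in neuron-like nuclei. Schwann cell-like and fibroblast-like nuclei, with the same count, had 2 genes each called higher in the female library, and macrophage-like nuclei 0. The part of granule cell RNA in the endothelial-like ratios was not tested. Neuron-like nuclei had 3 genes higher in the female library (background 1.39%) and 0 in the male library (2.4%). The 3 were *Grin2a* (138 and 51 UMIs, log2 ratio -2.62, interval -3.12 to -2.15), *Grin2c* (28 and 18 UMIs, -1.81) and *Grm4* (137 and 124 UMIs, -1.33). These are genes of the granule cell-like nuclei too. Of the 12 granule cell markers, 10 were higher in female than in male neuron-like nuclei, with a summed level of 10.1 against 7.56, and *Gabra6* had 50 and 10 UMIs. Most of these sums came from *Rora* (3.91 and 2.69), *Kcnd2* (2.97 and 2.03) and *Etv1* (2.27 and 2.41). Over all genes compared in this class, the median log2 ratio of male over female was 0.02. The part of granule cell RNA in the 3 ratios was not tested. The other 27 genes, *Grik1*, *Grm7*, *Gria4* and *Slc17a6* among them, differed by less than 2-fold between the sexes when all neuron-like nuclei were summed. The make-up of that sum differed between the libraries, with 5 female and 116 male sympathetic-like nuclei, and 59 and 318 nuclei of sub-cluster 3. The part of this make-up in the ratios was not tested. Within single neuron-like clusters some of the 27 genes passed 2-fold, in either direction. *Grik1* had a log2 ratio of 1.89 in cluster 13 (1.49 to 2.35), but between -0.52 and 0.11 in the other neuron-like clusters. *Grid1* had -2.02 in cluster 2, and in cluster 5 *Grm5* had -1.55 and *Slc1a3* -1.89. The cause of these differences was not tested.

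**Figure D5:**
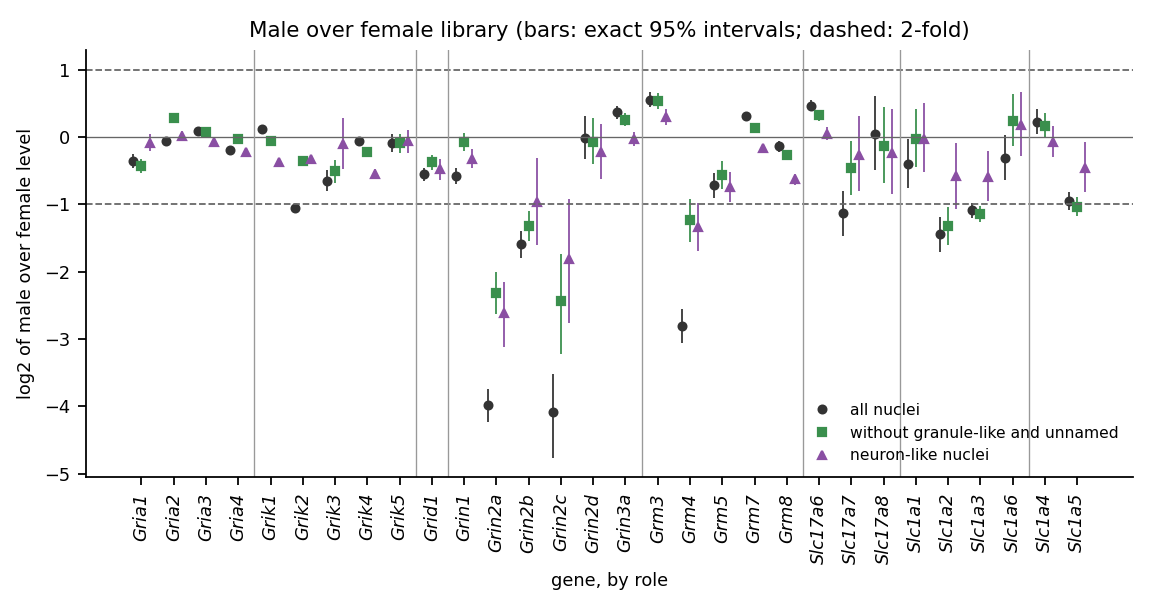
Log2 of the male over the female level for the 30 genes (x axis, by role) in all nuclei (circles), without granule cell-like nuclei and cluster 16 (squares) and in neuron-like nuclei alone (triangles), with exact 95% intervals and dashed lines at 2-fold. *Grin2a*, *Grin2c* and *Grm4* lie under -1 in all 3 sets, and *Grik2* moves from -1.06 to -0.36 when granule cell-like nuclei and cluster 16 are left out.

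In satellite glia-like nuclei 9 genes were higher in the female library (background 2.34%) and 1, *Grm8*, in the male library (3.25%). The 9 were *Gria1*, *Gria4*, *Grin2a*, *Grin2b*, *Grm3*, *Grm4*, *Grm5*, *Slc1a2* and *Slc1a3*. Of the 12 granule cell markers, 11 were higher in female than in male satellite glia-like nuclei, as in every other class but the neuron-like one (10). Their summed level was 24.0 against 15.3, and *Gabra6* had 13 and 0 UMIs. Of these sums, *Rora* alone gave 19.3 and 12.6, and barrier fibroblast-like nuclei had higher sums (39.4 and 28.1). Of 9 astrocyte markers, 6 were higher in females, with a summed level of 13.1 against 11.2. *Slc4a4* alone gave 9.71 and 7.57 of these, and adipocyte-like nuclei had higher sums (26.2 and 18.8). The part of either list in the ratios was not tested. *Gria1* led with 2.91 UMIs per 10000 in female (465 UMIs) and 0.201 in male nuclei (52 UMIs), a log2 ratio of -3.85 (-4.30 to -3.44). Yet *Gria1* was seen in 27 of 560 female and 42 of 818 male nuclei, that is in 4.82% and 5.13% of them. The 10 female nuclei with the most *Gria1* held 385 of its 465 UMIs, or 82.8%, and 9 of these 10 were in cluster 8. Those 10 nuclei, chosen for their *Gria1*, also had 93.6 *Gria4* and 31.2 *Slc1a3* UMIs per 10000, against 3.35 and 0.871 in the other female nuclei of the class. Their *Grik2* was 1.71 against 16.7, so that they held little of the leading kainate subunit of satellite glia (8 UMIs). Without them *Gria1* had a log2 ratio of -1.36, *Gria4* -0.47 and *Slc1a3* -0.84, and 7 genes were higher in the female library. *Grm8*, the gene higher in males, was concentrated too: 10 male nuclei held 114 of its 134 UMIs.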

How the data were processed

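Single-nucleus RNA of vagus nerve ganglia was measured in 1 female and 1 male pool (10x Genomics 3′ kit). The authors aligned reads with Cell Ranger to mm10 with an added transgene, introns included, removed debris and possible doublets, and joined both libraries at equalised depth. The deposited values are UMI counts per gene and nucleus, with no further normalization. The barcode suffix was assigned to a sex because the number of nuclei of each suffix equals that stated for that pool.

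Nuclei were clustered with scipy 1.17.1, scikit-learn 1.9.0 and igraph 0.11.9 in Python 3.11.15 (10 components, 243 neighbours, 23452 genes, 20 clusters). The 33 genes, sex-linked genes and the study's list of sex differences were left out. The resolution was raised until there were 20 clusters, the number of the study. Classes were named from marker lists. The limits of naming (mean log2 fold of 0.4, at least 3 markers at 1.5-fold) were set after the clusters were seen, so names may differ from those of the study. The members and lists were chosen with earlier results of these data known. Every member was to be described.

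Levels are summed UMIs per 10000 UMIs, with exact Poisson intervals (95%), and shares were also taken after thinning each nucleus to 1000 or 5000 UMIs. Nuclei shallower than that were left out of thinned shares. A class, or a kind of neuron, was compared in each library after adding 0.05 per 10000, and a gene was called at 2-fold or more in both. Sex ratios had 0.5 UMIs added and exact conditional binomial intervals. At least 20 UMIs were required. With 1 library a sex, no p-value was computed. Neuron-like over the other classes and male over female in neuron-like nuclei were tested on simulated counts of well-counted genes. Genes near the UMI minimum and the kinds of neurons were not covered by that. Scrublet, run through scanpy 1.11.5 with an expected rate of 0.06, called 3 female and 1 male nuclei as doublets, and no nucleus was removed. Whether it worked was not tested, so doublets may remain. Alternatives changed the added level, the UMI minimum, the fold, the depth of nuclei, the weighting, the clustering and the classes compared.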

Additional observations from a re-analysis of the deposited data

Results flagged for a closer look

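For 3 genes the male over female ratio took opposite directions in different classes of nuclei, by at least 2-fold in each. The difference between the classes was not tested, since each sex is 1 library. *Gria4* had a log2 ratio of 1.19 in barrier fibroblast-like nuclei, which was 1.98 in cluster 14 (53 female and 259 male UMIs) and -0.18 in cluster 7 (64 and 70 UMIs), and -1.31 in satellite glia-like nuclei, and the latter was -0.47 without the 10 female nuclei richest in *Gria1*. *Grin2b* had 1.36 in barrier fibroblast-like nuclei, from 6 female and 20 male UMIs, and -2.22 in satellite glia-like nuclei. The latter was -1.08 without the same 10 nuclei, which held 36 of the 64 female UMIs. *Grm7* had 1.54 in barrier fibroblast-like nuclei (41 female and 148 male UMIs) and -2.01 in adipocyte-like nuclei (84 and 6 UMIs). In granule cell-like nuclei, of which the male library held 24, it had -2.96 from 87 and 0 UMIs, so that this value depends on the 0.5 UMIs added and is no bound. It was 1.2004 there with the clustering scaled within libraries.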

How the results depend on the processing

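No paired analysis was possible because each sex is 1 library, and no replicate could be left out. Of 86 counts of calls under alternatives, 68 stayed within 1.5 times the main count; the cause of the others was not tested. The 8 genes higher in neuron-like nuclei ranged from 8 to 11. The 7 lower genes became 4 with 0.2 per 10000 added and 4 without granule cell-like nuclei and cluster 16 among the other classes, where *Grm4* turned to 0.48 (0.026 without granule cell-like nuclei alone). The 22 calls in other classes became 11 there, but 14 of the 22 belong to the classes left out; the 7 classes that stay had 8 calls before. Sex calls within classes were 12 male and 41 female, out of 209 pairs of a gene and a class. They became 5 and 26 at a minimum of 50 UMIs, and 34 and 67 at 1.5-fold. Clustering scaled within libraries gave 21 male calls and turned *Grin2b* (1.59) and *Grm7* (1.2004) in granule cell-like and *Grik1* (0.89) in endothelial-like nuclei. Counted by gene instead, out of 30 genes, there were 0 and 8 over all nuclei, and 0 and 1 as a mean over classes. These gene counts are among the 86 but are not on the scale of the pair counts. At 1.5-fold, 8 genes were higher in jugular-like nuclei. Chosen after seeing the data were the alternatives that leave out sub-clusters, clusters, granule cell-like nuclei alone or the 10 nuclei. Of the calls between kinds of neurons (2 nodose, 5 jugular), leaving out sub-cluster 2 gave 4 and 3, with *Grid1* at 0.93, sub-cluster 4 gave 1 nodose, sub-cluster 5 gave 8 jugular, and sub-cluster 6 gave 1 nodose (*Gria3* at 0.99). Without cluster 7, *Slc1a3* in barrier fibroblast-like nuclei was -1.48. Depth limits genes near the minimum of 20 UMIs.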
